A study of Mus musculus with 191 samples.

Results

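The NRF2 core stress genes are the 10 mouse genes Nqo1, Gclc, Gclm, Slc7a11, Txnrd1, Srxn1, Gsr, Hmox1, Nfe2l2 and Keap1. They were chosen by name, through probe sets that the array's annotation assigns to these symbols alone, which gave 21 of 45101 probe sets and 10 of 18194 genes. All 10 passed the filter on low values and were tested among 13524 genes. Lung RNA came from female B6C3F1 mice, a hybrid strain of rodent cancer bioassays, killed at 18 weeks of age after 13 weeks of exposure, and was hybridised to Affymetrix Mouse 430_2 arrays, 1 sample to an array. There were 133 exposed samples in 34 groups of 3 to 5 and 58 unexposed samples in 14 control sets, spread over 4 array batches named in the titles. The animals carry no transgene or deletion, and the series title concerns the prediction of lung tumours with 26 chemicals.

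Chow held 2000 ppm 1,5-naphthalenediamine (NAPD), 2000 ppm N-(1-naphthyl)ethylenediamine dihydrochloride (NEDD) or 8187 ppm pentachloronitrobenzene (PCNB) in batch IMFGN0023. In batch HON07 it held 20000 ppm 1-amino-2,4-dibromoanthraquinone (ABDQ) or 1000 ppm tris(2,3-dibromopropyl)phosphate (TDPP). In batch RSTLRI601 it held 1250 ppm 2,2-bis(bromomethyl)-1,3-propanediol (BBMP), 200 ppm diazinon (DIAZ), 10000 ppm 4-nitroanthranilic acid (NAAC) or malathion (MALA, 14800 ppm in the protocol and 16000 ppm in the titles). Corn oil gavage delivered 240 mg/kg 2,3-benzofuran (BFUR) in IMFGN0023, and 93 mg/kg iodoform (IODO) or 3925 mg/kg trichlorofluoromethane (TCFM) in HON07. It delivered 100 mg/kg benzene (BENZ), 200 mg/kg coumarin (COUM) or 62 mg/kg 1,2-dibromoethane (DBET) in RSTLRI601, and 600 mg/kg 1,4-dichlorobenzene (DCBZ) or 60 mg/kg 1,2,3-trichloropropane (TCPN) in RSTLRI000. Water gavage in RSTLRI601 delivered 250 mg/kg 2-chloromethylpyridine hydrochloride (CMPH) or 50 mg/kg N-methylolacrylamide (MACR). Inhaled agents were 50000 ppm tetrafluororethane (TFEA, spelled as in the labels) and 1250 ppm tetrafluoroethylene (TFEL) in HON07. In RSTLRI000 they were 100 ppm ethylene oxide (ETOX), 1200 ppm propylene glycol mono-t-butyl ether (PGBE), 2 mg/m3 vanadium pentoxide (VANP), naphthalene (NPTH) at 0.5, 3, 10, 20 or 30 ppm, and methylene chloride (MECL) at 100, 500, 2000, 3000 or 4000 ppm. Controls received the vehicle alone, as chow (RodentChow, FCO1, FCO2), corn oil (CornOil, CCO2 to CCO6), distilled water (WCO1) or air (ACO1, ACO3 to ACO5). The labels do not say which control set ran beside which chemical, so every group was compared with each of the sets that shared its vehicle and batch.

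NRF2, the product of Nfe2l2, is a transcription factor that is made continuously and is normally held by KEAP1, which passes it to a ubiquitin ligase for destruction. Electrophiles and oxidants modify sensor cysteines of KEAP1, and NRF2 then accumulates, pairs with small MAF proteins and binds antioxidant response elements near its target genes. In lung the pathway is known for its part in handling reactive metabolites of inhaled and ingested chemicals, above all in airway epithelium. Because the sensor step acts on protein, the amount of Nfe2l2 or Keap1 RNA is not itself a measure of NRF2 activity.

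Promoters of members were read because several of these genes moved together. RefSeq's table for GRCm38.p6 gives windows from 250 bases before to 50 bases after a gene's start, and it holds 9 windows for 7 of the 10 members. Gclc, Gsr and Hmox1 are not listed in it. The core of the antioxidant response element was searched as TGACNNNGC or TGAGNNNGC on both strands, and the 2 patterns exclude each other at any position. It occurred in 5 of the 9 windows (Gclm, Slc7a11, Srxn1, Nfe2l2 and 1 of 3 for Txnrd1), against 27.8% of all 32851 promoter windows of that length. The 4 windows below are those of the most often risen member and of the 3 members with a match that rose with it in the 1,5-naphthalenediamine group by 1 log2 unit or more, written 5′ to 3′ on the gene's strand with matches in capitals:
Nqo1, chr8:107403156-107403455, minus strand: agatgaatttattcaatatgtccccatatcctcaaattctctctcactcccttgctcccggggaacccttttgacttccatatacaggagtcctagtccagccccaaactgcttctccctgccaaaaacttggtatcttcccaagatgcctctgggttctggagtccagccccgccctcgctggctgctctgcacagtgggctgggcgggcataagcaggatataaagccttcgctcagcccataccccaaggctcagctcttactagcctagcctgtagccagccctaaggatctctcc
Gclm, chr3:122245307-122245606, plus strand: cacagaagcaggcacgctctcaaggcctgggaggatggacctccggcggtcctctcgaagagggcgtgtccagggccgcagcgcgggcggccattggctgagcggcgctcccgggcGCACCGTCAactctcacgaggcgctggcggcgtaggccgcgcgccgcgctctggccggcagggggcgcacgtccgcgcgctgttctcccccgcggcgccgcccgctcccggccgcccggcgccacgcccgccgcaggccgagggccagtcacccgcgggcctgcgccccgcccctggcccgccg
Txnrd1, chr10:82858956-82859255, plus strand: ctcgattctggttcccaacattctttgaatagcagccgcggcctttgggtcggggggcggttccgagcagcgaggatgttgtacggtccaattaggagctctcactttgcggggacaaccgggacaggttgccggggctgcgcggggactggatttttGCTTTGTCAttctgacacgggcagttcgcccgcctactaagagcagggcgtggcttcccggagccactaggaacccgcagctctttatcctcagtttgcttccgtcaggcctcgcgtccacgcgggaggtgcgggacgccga
Srxn1, chr2:152105274-152105573, plus strand: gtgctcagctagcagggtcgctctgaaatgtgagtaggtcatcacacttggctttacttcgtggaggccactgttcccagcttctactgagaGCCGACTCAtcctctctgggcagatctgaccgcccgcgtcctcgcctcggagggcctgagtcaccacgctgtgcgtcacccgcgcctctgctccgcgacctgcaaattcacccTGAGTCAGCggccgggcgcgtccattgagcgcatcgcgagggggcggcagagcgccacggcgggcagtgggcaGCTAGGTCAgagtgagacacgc

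The Srxn1 window holds 3 matches, with their leftmost bases 158 and 45 bases before the start and at base 29 of the transcript. Gclm has a match 134 bases before the start and Txnrd1 92 bases before it, both on the opposite strand. Nqo1 shows no match, which says only that these letters are not in this window. A match is a description of sequence; binding was not measured here.

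Values are the deposited ones, taken as log2 and centred near 0 on each array, with -0.386 as the median of all values, so a negative level is a modest signal and not a loss. A log2 difference is an exposed mean minus the equal-weight mean of the matched control sets, given ± SE from limma. Rise and fall are used of a member that passed a Benjamini-Hochberg adjusted p of 0.05, over all 13524 genes, against each matched set with 1 sign throughout, and the p printed is the largest over the sets. The labels do not state that samples of a group are separate animals, so p-values measure the spread between these samples, which may be technical. In whole lung, a change in the number of cells of a type and a change of RNA per cell cannot be told apart. How many of all genes showed no overlap between exposed and control arrays was not counted, so such statements only describe the values.

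The samples carried lung markers, with all 10 tested alveolar type 2, all 9 alveolar type 1 and all 10 endothelial markers above the median signal in every array, and 11 of 12 club cell markers. RNA integrity numbers ran from 6.1 to 9.6, were under 7 in 2 arrays and were missing for 32. Between control sets that shared a vehicle and batch, limma called 0 members in 5 comparisons, with 0, 0, 0, 1 and 1 members at an unadjusted p under 0.05, and the largest difference of a member was 0.28. Of all genes, 4 were called there, all between CCO2 and CCO3.

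Over 34 groups and 10 genes, 36 of 340 differences were rises and 1 was a fall, in 13 groups of 11 chemicals. Nqo1 rose in 11 groups, Txnrd1 in 6, Gclc in 5, Srxn1 in 4, Gsr in 3, Gclm and Hmox1 in 2 each, and Slc7a11 in 1. Nfe2l2 rose in 1 group and fell in 1, and Keap1 rose in 1. NAPD stood apart with 8 of 10 members risen. In this group 1.09% of all genes tested were called, and the members' median difference was 1.06 against 0.0043 over all genes. BBMP had 4 members risen (10.8% of all genes called), MALA 3 (1.71%), DCBZ 3 (1.43%), TCPN 3 (9.37%) and naphthalene at 30 ppm 3 (2.05%). There were 2 rises each in BFUR (1.86%), ABDQ (0.917%), COUM (5.69%), DBET (2.67%) and naphthalene at 20 ppm (2.11%), and 1 in naphthalene at 10 ppm (0.555%). IODO had 1 rise and 1 fall, in a group where 27.4% of all genes were called. When each contrast was fitted on its own arrays alone, without the spread shared over groups, 20 of these 37 calls were kept. Those lost were Nqo1 in BFUR (adjusted p = 0.212), MALA and TCPN, Gclc and Gclm in DBET, Gclc and Nfe2l2 in TCPN, Txnrd1 in MALA, COUM and DCBZ, Srxn1 in BFUR, BBMP and MALA, Gsr in DCBZ, Hmox1 in ABDQ and both in IODO. In TCPN 5 members were called without CCO6 replicate 3 or 5, and in naphthalene at 10 ppm 2 without ACO4 replicate 4.

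**Figure D1:**
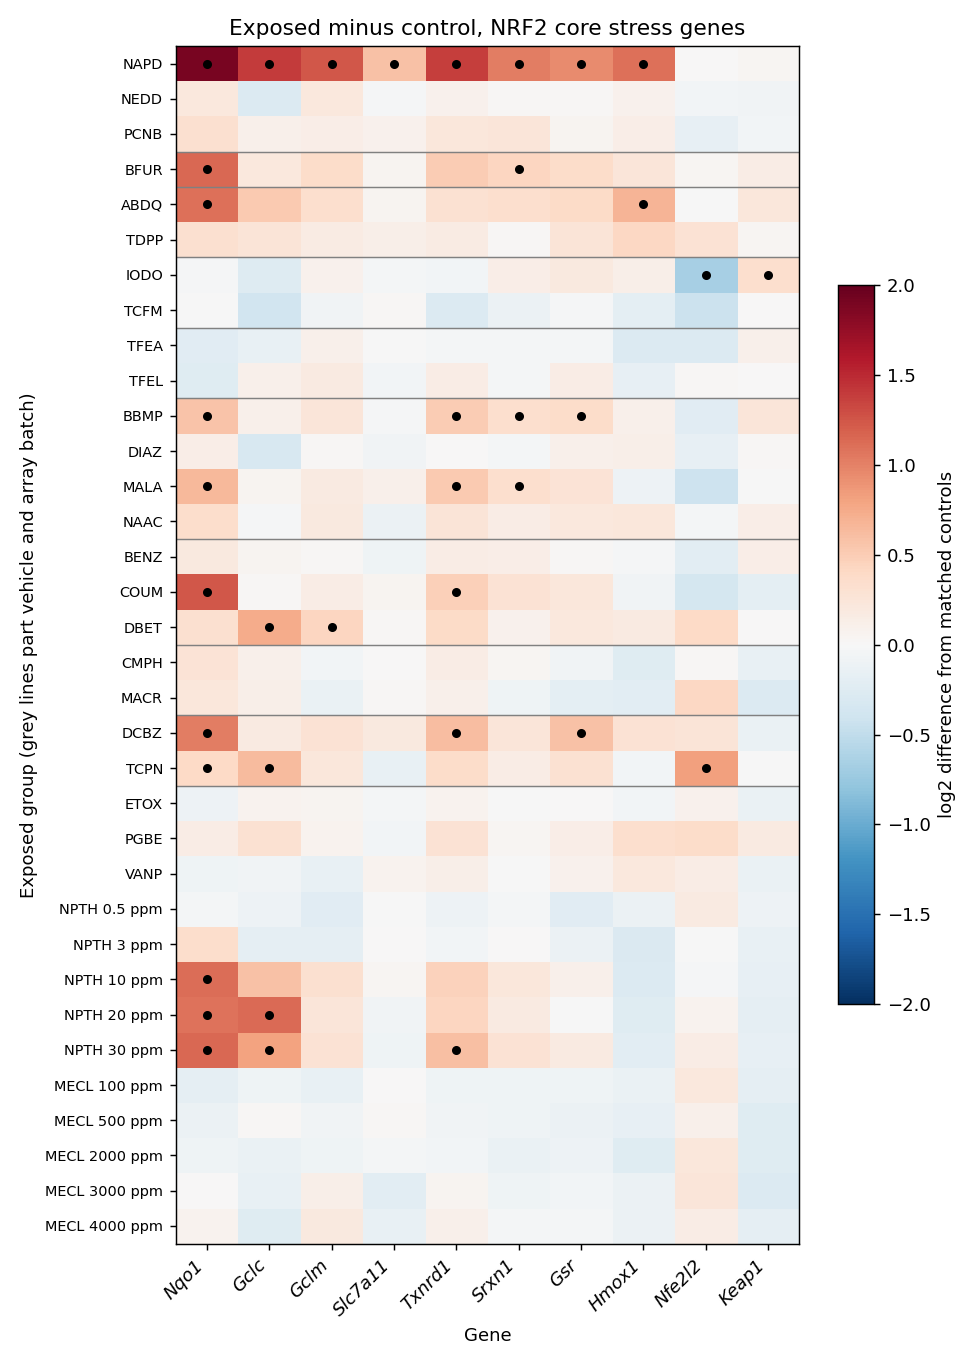
Log2 difference of each gene (columns) in each exposed group (rows) from its matched controls, from blue (lower) to red (higher), with a dot where the gene rose or fell. The NAPD row has 8 dots and the Nqo1 column 11, while the 5 methylene chloride rows have none.

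No member was called by limma in the other 21 groups. The unadjusted p counted below is likewise the largest over the matched sets, with 1 sign throughout. Groups with several control sets, such as the air groups of RSTLRI000, thus met a stricter rule than groups with 1. Groups without any member at an unadjusted p under 0.05 were NEDD (0.0887% of all genes called), TFEA (0.0961%), DIAZ (0%), BENZ (0.0296%), ETOX (0%), PGBE (0.673%), VANP (4.33%) and methylene chloride at 100 ppm (0.148%), 500 ppm (0%) and 2000 ppm (0.0148%). At that unadjusted level there was 1 member in TFEL (7.13%), CMPH (0%), naphthalene at 0.5 ppm (0.37%) and 3 ppm (0.355%) and methylene chloride at 4000 ppm (0.503%). There were 2 in PCNB (0.00739%), MACR (5.24%) and methylene chloride at 3000 ppm (0.577%), and 3 in TDPP (0.00739%), TCFM (0.488%) and NAAC (0.0148%). TFEL, MACR and VANP had 964, 708 and 586 genes called and no NRF2 core gene among them by the probe set that stands for each gene. At shares of 7.13%, 5.24% and 4.33% of all genes, the absence of so few members is near the share over all genes. Over all probe sets, the second of Keap1 (1450747_at, 0.60 ± 0.12, limma adjusted p = 0.00027) and 1 of 3 for Txnrd1 (1424486_a_at, 0.47 ± 0.10, limma adjusted p = 0.000454) rose in TFEL.

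Nqo1 encodes a quinone reductase that takes quinones to hydroquinones by a transfer of both electrons at once, and it is the most widely used readout of NRF2. Its control level hardly moved between sets, with set means from -0.295 in RodentChow to -0.121 in CCO4. In NAPD the 3 arrays read 1.85, 1.46 and 1.50 against -0.321, -0.265 and -0.300 in RodentChow. The difference was 1.90 ± 0.13 (3.74-fold, adjusted p = 1.11e-25). The groups lay far apart, since every exposed array exceeded every control array.

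COUM arrays read 1.22, 1.15, 0.852 and 0.780, above the highest of 8 corn oil controls at -0.115, a difference of 1.24 ± 0.10 (limma adjusted p = 2.34e-16). BFUR arrays read 1.23, 0.601 and 0.933 against a control maximum of -0.144, a difference of 1.15 ± 0.13 (limma adjusted p = 9.93e-11). ABDQ arrays read 0.877, 0.604, 1.08 and 0.939 against -0.0521 at most, a difference of 1.10 ± 0.12 (limma adjusted p = 6.4e-13). In none of these groups did an exposed array overlap the controls. DCBZ was the tightest, with 0.810, 0.747, 0.873 and 0.755 against at most 0.0587 in 10 controls, a difference of 1.02 ± 0.10 (limma adjusted p = 2.72e-12).

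The chow groups BBMP and MALA differed from these in their spread. BBMP arrays read 0.654, 0.162, 0.524 and 0.0064 against -0.194 at most in FCO2, a difference of 0.57 ± 0.12 (limma adjusted p = 0.00224), which was not called without BBMP replicate 3 (0.51, adjusted p = 0.119). MALA arrays read 0.862, 0.306, 0.606 and -0.0935, a difference of 0.65 ± 0.12 (limma adjusted p = 9.62e-05). The lowest array of each group was close to its controls although it did not reach them. The neutrophil marker list stood above FCO2 (0.675 to 0.761) in every array of BBMP (1.03 to 1.74) and MALA (0.949 to 2.22), although 0 of its 8 genes were called by limma. It also did so in every array of NAAC (0.848 to 1.23), where no member was called. In BBMP the list of B and plasma cells stood above FCO2 too (1.09 to 1.49 against 0.469 to 0.900). So did that of T and NK cells (0.482 to 0.847 against 0.355 to 0.416), with 1 gene of each list risen. The part of these in the BBMP and MALA rises was not tested. TCPN arrays ran only from 0.100 to 0.326, a difference of 0.40 ± 0.10 (limma adjusted p = 0.0118), which was lost without TCPN replicate 1 (0.35, adjusted p = 0.0536) and after quantile normalization within the batch (0.32, adjusted p = 0.0859).

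Ordered by size, the Nqo1 differences parted between neighbours at 2 places. NAPD exceeded the next group, COUM, by 0.66 (95% interval 0.33 to 0.99), and DCBZ, the eighth in order, exceeded MALA by 0.37 (0.067 to 0.67). Of the 33 intervals between neighbours, the other 31 held 0, so the order from COUM through BFUR, naphthalene at 30 and 10 ppm, ABDQ and naphthalene at 20 ppm to DCBZ is within the spread. The lowest difference was in TFEL (-0.24 ± 0.12, limma adjusted p = 0.204), which was not called. In PCNB, NEDD, TDPP, NAAC and CMPH every array lay above every control array without a call, as in PCNB with -0.0179, 0.0766 and 0.0129 against at most -0.265 (difference 0.32 ± 0.13, limma adjusted p = 0.997). The share of all genes lying so in these groups was not counted, so this is not read as a rise.

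**Figure D2:**
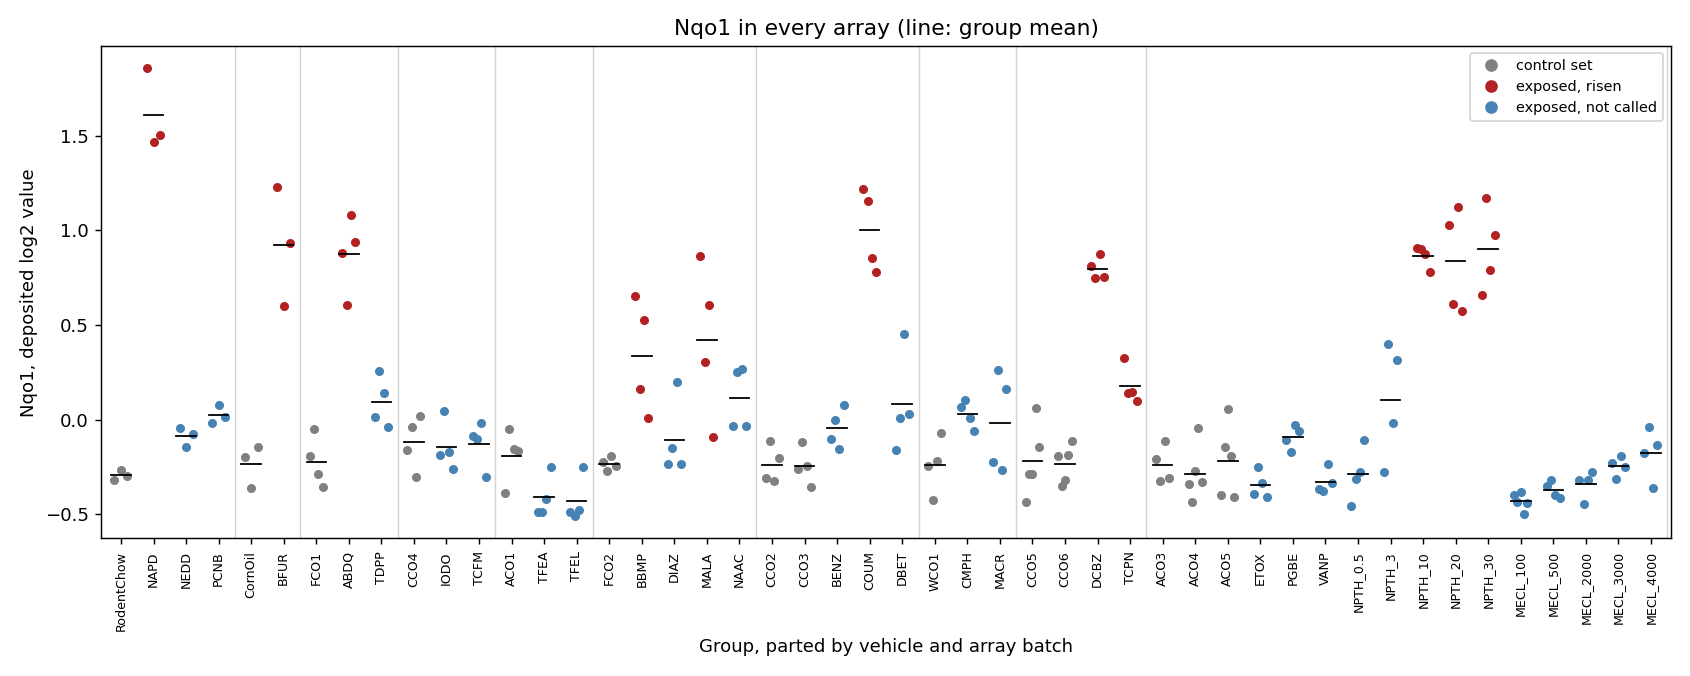
Deposited log2 value of Nqo1 in every array (points) with the group mean (line), by group along the horizontal axis and parted by vehicle and batch. Control sets (grey) sit between -0.436 and 0.0587, and the 3 NAPD points, the highest of all, between 1.46 and 1.85.

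Glutathione synthesis is represented by the catalytic subunit of glutamate-cysteine ligase, Gclc, its modifier subunit, Gclm, and Slc7a11, the cystine transporter subunit that brings in the limiting amino acid. Gclc in NAPD read 4.44, 4.38 and 4.19 against 2.73, 3.18 and 2.93 in RodentChow, a difference of 1.39 ± 0.21 (limma adjusted p = 2.69e-07) with no overlap. Gclm read 2.62, 2.55 and 2.50 against 1.19, 1.41 and 1.32, a difference of 1.25 ± 0.11 (limma adjusted p = 6.35e-18). The tightest of these groups was Slc7a11, with -0.0239, 0.0841 and 0.0073 against -0.594, -0.628 and -0.448, a difference of 0.58 ± 0.07 (limma adjusted p = 5.72e-11). Both ligase subunits and the transporter thus rose in the same 3 samples.

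Slc7a11 was near the lower end of the array's range. Its probe set exceeded the median of all values in 13 arrays only, 3 of them NAPD, 3 DCBZ and 2 TDPP. In DCBZ it read -0.455, -0.198, -0.222 and -0.359, and its difference of 0.19 ± 0.05 was not called (limma adjusted p = 0.128). NAPD exceeded DCBZ, the next in order, by 0.39 (95% interval 0.22 to 0.56).

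Outside NAPD, Gclc rose in DBET, TCPN and naphthalene at 20 and 30 ppm. DBET arrays read 4.22, 3.68, 3.59 and 3.55 against 2.80 to 3.42 in 8 controls, a difference of 0.74 ± 0.16 (limma adjusted p = 0.0125) with no overlap. The call was lost without DBET replicate 1, the highest array (0.59, adjusted p = 0.128), and without CCO2 replicate 2 (0.69, adjusted p = 0.0793), and with the mean of both probe sets (0.57, adjusted p = 0.0807). TCPN arrays read 3.62, 3.35, 3.55 and 3.44, of which 2 lay above the highest of 10 controls at 3.444, a difference of 0.63 ± 0.15 (limma adjusted p = 0.0154). That call was lost without TCPN replicate 1 (0.59, adjusted p = 0.068) and without CCO6 replicate 1, 2 or 4 (adjusted p = 0.0655, 0.0505 and 0.0686), and after quantile normalization (0.41, adjusted p = 0.137). None of the 33 intervals between Gclc neighbours excluded 0, so NAPD did not differ from naphthalene at 20 ppm beyond the spread (0.27, 95% interval -0.24 to 0.77).

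Gclm rose outside NAPD only in DBET among single groups, with 1.69, 1.91, 1.81 and 2.16 against 1.24 to 1.78 in the controls. The difference was 0.42 ± 0.08 (limma adjusted p = 0.00961) and 3 of 4 arrays exceeded the highest control. It was not called without DBET replicate 4 (0.34, adjusted p = 0.0849) or without CCO2 replicate 1 (0.38, adjusted p = 0.0949) or 2 (0.40, adjusted p = 0.0667). BFUR arrays, at 1.99, 1.82 and 1.79, lay above all CornOil arrays (1.44 to 1.60) with a difference of 0.37 ± 0.11 that was not called (limma adjusted p = 0.0606).

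The thiol-reducing members are Txnrd1, cytosolic thioredoxin reductase, Srxn1, sulfiredoxin, which restores over-oxidised peroxiredoxins, and Gsr, which returns oxidised glutathione to its reduced form. In NAPD Txnrd1 read 3.47, 3.48 and 3.40 against 2.11, 2.21 and 1.86, a difference of 1.39 ± 0.15 (limma adjusted p = 8.86e-13). Srxn1 read 1.73, 1.35 and 1.75 against 0.605, 0.667 and 0.493, a difference of 1.02 ± 0.11 (limma adjusted p = 3.5e-13). Gsr, at 2.51, 2.45 and 2.33 against 1.49, 1.64 and 1.32, differed by 0.95 ± 0.14 (limma adjusted p = 4.73e-08). None of the 3 genes, all called on these arrays, overlapped between the groups, which adds no support beyond the calls. NAPD exceeded the next group in order for each, by 0.77 over DCBZ for Txnrd1 (95% interval 0.39 to 1.14), by 0.60 over BFUR for Srxn1 (0.29 to 0.91) and by 0.37 over DCBZ for Gsr (0.038 to 0.70).

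DCBZ raised 2 members of this arm beside Nqo1. Txnrd1 read 2.69, 2.84, 2.80 and 2.79, all above the highest of 10 controls at 2.54, a difference of 0.62 ± 0.11 (limma adjusted p = 0.00133). Gsr read 1.78, 1.99, 1.80 and 2.01 against at most 1.68, a difference of 0.58 ± 0.10 (limma adjusted p = 0.00086). Neither call was lost when any 1 array was left out.

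In MALA 1 array differed from the other 3. Replicate 4 had the lowest Nqo1, Txnrd1 (1.78) and Srxn1 (0.543) of the group, the latter 2 below every FCO2 array, whereas replicates 1 to 3 read 3.12, 2.67 and 3.14 for Txnrd1 against at most 2.25 in FCO2. The differences were 0.53 ± 0.13 for Txnrd1 (limma adjusted p = 0.0155) and 0.33 ± 0.10 for Srxn1 (limma adjusted p = 0.0479), with 3 of 4 arrays above the control mean. Txnrd1 was not called without MALA replicate 1 (0.38, adjusted p = 0.272) or 3 (0.38, adjusted p = 0.323), or without FCO2 replicate 2 (adjusted p = 0.0514) or 3 (adjusted p = 0.0781). Srxn1 was not called without MALA replicate 1, 2 or 3 or any FCO2 array, with adjusted p from 0.0508 to 0.537, nor without the filter on low values (0.33, adjusted p = 0.0603).

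In BBMP all 3 genes of this arm rose. Txnrd1 read 2.89, 2.39, 2.98 and 2.37 against 2.01 to 2.25, a difference of 0.51 ± 0.13 (limma adjusted p = 0.015). Srxn1 differed by 0.33 ± 0.10 (limma adjusted p = 0.024) and Gsr by 0.37 ± 0.12 (limma adjusted p = 0.0327). Replicates 1 and 3 were the high arrays for all 3 genes, and without replicate 3 none of the 4 members was called. Without replicate 1, FCO2 replicate 2 or FCO2 replicate 3 only Nqo1 was, and Gsr was also lost without BBMP replicate 4 (adjusted p = 0.0965) or FCO2 replicate 4 (adjusted p = 0.0519). The median difference of all genes was 0.10 in this group, and after quantile normalization within the batch only Nqo1 of the 4 was called.

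COUM and BFUR each had 1 further member of the arm. Txnrd1 in COUM read 2.99, 2.87, 2.29 and 2.38 against 1.89 to 2.49 in 8 controls, so that 2 of 4 arrays lay within the controls' range (0.47 ± 0.12, limma adjusted p = 0.0394). It was not called without COUM replicate 1 (0.35, adjusted p = 0.17) or 2 (0.39, adjusted p = 0.112), or without CCO2 replicate 1, 2 or 3 (adjusted p = 0.0988, 0.113 and 0.0761). Srxn1 in BFUR read 1.25, 0.807 and 0.910, all above 0.634 (0.42 ± 0.11, limma adjusted p = 0.0208). It was lost without BFUR replicate 1 (0.29, adjusted p = 1.00) and without CornOil replicate 2 (adjusted p = 0.159) or 3 (adjusted p = 0.0823), and after averaging its 4 probe sets (0.22, adjusted p = 0.0612). Without BFUR replicate 2, by contrast, 4 members were called in BFUR. Ciliated cell markers rose in BFUR in 5 of 14 cases, with array levels from 1.69 to 2.27 against 1.29 to 1.55 in CornOil. The neutrophil list (0.400 to 0.723 against 0.776 to 1.19) and the fibroblast list (2.98 to 3.14 against 3.17 to 3.35) lay below the controls there. The part of these in the Nqo1 and Srxn1 rises was not tested.

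Hmox1 encodes heme oxygenase-1, which breaks heme down to biliverdin, iron and carbon monoxide and answers to other signals beside NRF2. In NAPD it read 1.82, 1.82 and 1.64 against 0.566, 0.658 and 0.744, a difference of 1.11 ± 0.17 (limma adjusted p = 4.65e-07). ABDQ arrays read 1.12, 1.54, 1.07 and 1.66 against 0.582 to 0.806 in FCO1, with no overlap and a difference of 0.68 ± 0.15 (limma adjusted p = 0.00898). This call was lost without ABDQ replicate 2 (0.61, adjusted p = 0.0571) or 4 (0.57, adjusted p = 0.141). TDPP arrays, at 0.881, 1.30, 1.19 and 0.965, also lay above all FCO1 arrays, without a call (0.41 ± 0.15, limma adjusted p = 1.00). In naphthalene, where Nqo1 rose, Hmox1 differences were from -0.29 ± 0.12 at 3 ppm to -0.12 ± 0.12 at 0.5 ppm, and none was called. Macrophages are a known source of Hmox1 in lung, and in NAPD 1 of 14 macrophage markers rose, 0 fell and their median difference was 0.014, with array levels of the list from 1.94 to 2.06 against 1.71 to 2.13 in RodentChow. In ABDQ 1 of 14 rose and 0 fell (median 0.16), and the list stood at 2.13 to 2.18, wholly above the 1.80 to 1.98 of FCO1. Its part in the Hmox1 rise was not tested.

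The regulators themselves did not pass the test in NAPD. Nfe2l2 read 2.84, 2.65 and 3.02 against 2.88, 2.93 and 2.66 in RodentChow, a difference of 0.01 ± 0.22. Keap1 read 1.66, 1.56 and 1.66 against 1.49, 1.71 and 1.55, a difference of 0.05 ± 0.13. On these probe sets the exposed and control arrays overlapped for both genes. On their second probe sets the differences were 0.08 for Nfe2l2 and 0.36 for Keap1, neither called.

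Nfe2l2 was highest in TCPN, with 3.65, 3.50, 3.77 and 3.63 against 2.22 to 3.55 in 10 controls, a difference of 0.82 ± 0.16 (limma adjusted p = 0.00736) with 3 of 4 arrays above the highest control, which was not called after quantile normalization (0.60, adjusted p = 0.0725). It was lowest in IODO, with 2.44, 2.00, 2.69 and 2.52 against 3.02 to 3.12 in CCO4, a difference of -0.66 ± 0.19 (limma adjusted p = 0.0107) with no overlap. Keap1 rose in IODO (0.34 ± 0.11, limma adjusted p = 0.021), where the arrays read 1.87, 2.42, 1.58 and 1.60 and 2 lay within the controls' range of 1.37 to 1.69. Replicate 2 of IODO had both the lowest Nfe2l2 and the highest Keap1. Without it neither was called (-0.52, adjusted p = 0.328, and 0.16, adjusted p = 0.515). Without CCO4 replicate 1 or 3 neither was called either (adjusted p = 0.078 and 0.103 for Nfe2l2, 0.13 and 0.144 for Keap1), and Keap1 was also lost without IODO replicate 1 (adjusted p = 0.0507). In the same group the beta-actin 3' minus 5' signal was 0.347 against 0.691 in CCO4, and its part in the result was not tested.

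NAPD and NEDD are both amines of naphthalene given in chow at 2000 ppm in the same batch. NAPD carries a free amino group on each ring, while NEDD has a single nitrogen on the ring system, extended by an aminoethyl chain. Compared directly, 8 members were higher in NAPD and 0 lower, with 1.54% of all genes called between these groups. Nqo1 in NEDD read -0.0441, -0.146 and -0.0769, far below NAPD, and the groups differed by 1.70 ± 0.13 (95% interval 1.43 to 1.96, limma adjusted p = 1.47e-21). Gclc differed by 1.67 (1.26 to 2.09), Txnrd1 by 1.31 (1.00 to 1.61), Gclm by 1.03 (0.81 to 1.26), Hmox1 by 1.01 (0.68 to 1.35), Srxn1 by 0.99 (0.77 to 1.21), Gsr by 0.92 (0.65 to 1.19) and Slc7a11 by 0.61 (0.47 to 0.75). The limma adjusted p of these ranged up to 5.09e-06. No NEDD array reached a NAPD array for any of the 8 genes, but these were already called on the same arrays, so this adds no support. Nfe2l2 (0.06, -0.37 to 0.48) and Keap1 (0.12, -0.14 to 0.38) were not called.

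Some marker lists moved beside this result. Of 7 B and plasma cell markers, 3 rose in NAPD over RodentChow and 4 were higher than in NEDD, with array levels of the list from 1.86 to 2.59 in NAPD, 0.716 to 0.788 in NEDD and 0.525 to 1.17 in RodentChow. The T and NK cell list was lower, from 0.259 to 0.389 in NAPD, 0.420 to 0.503 in NEDD and 0.480 to 0.579 in RodentChow. The 2 erythroid markers tested ran from 2.00 to 2.96, from 1.99 to 2.75 and from 1.56 to 1.80 in that order. Ciliated cell markers ran from 1.56 to 1.63, from 1.13 to 1.19 and from 1.26 to 1.54 in the same order, and the beta-actin 3' minus 5' signal was 0.255, 0.355 and 0.557. RNA integrity numbers were 8.8 to 9.2 in NAPD, with 1 missing, 8.9 to 9.2 in NEDD and 8.3 to 8.9 in RodentChow. The part of these in the result was not tested.

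**Figure D3:**
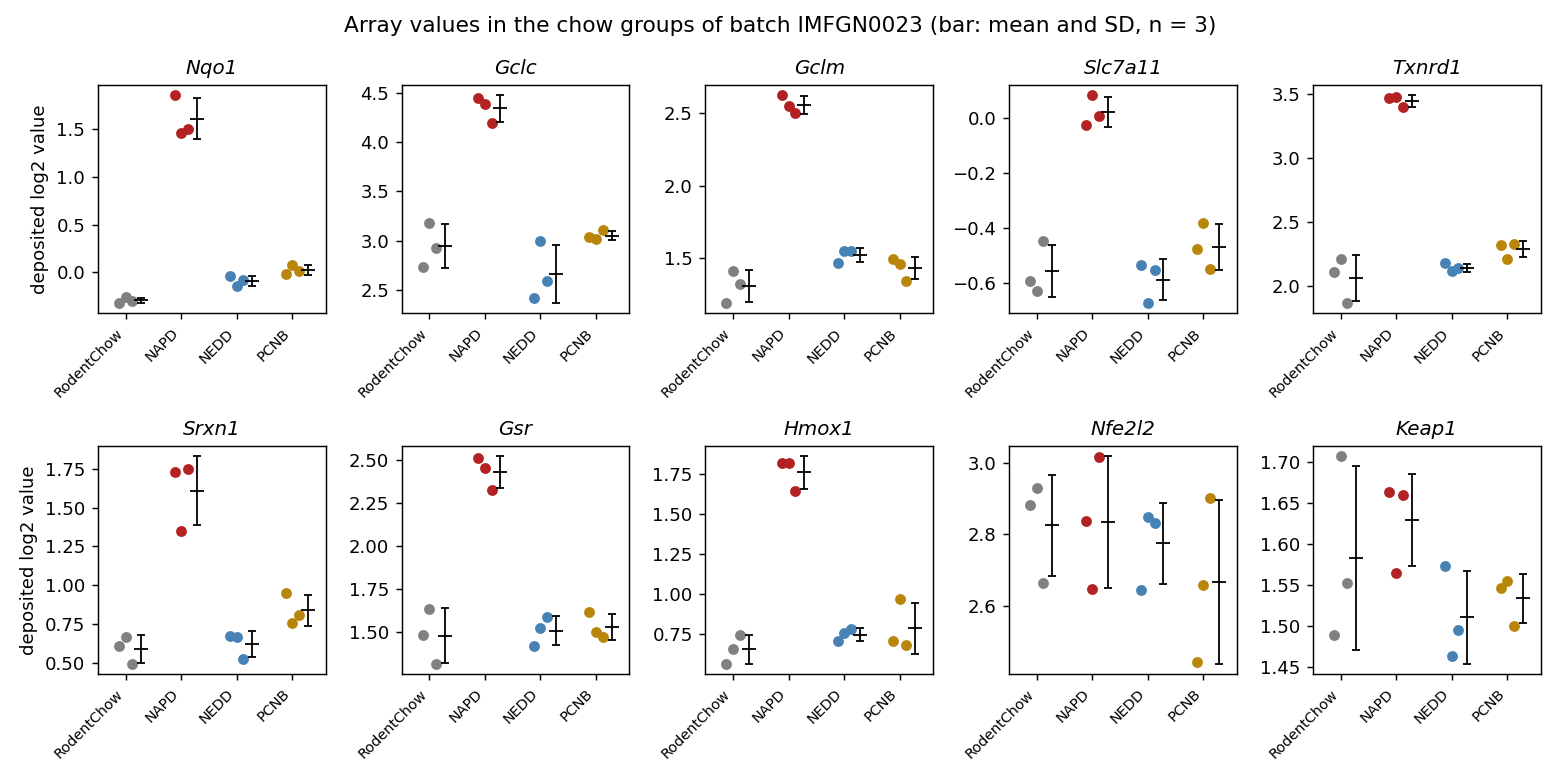
Deposited log2 values of the 10 genes in each array (points) of RodentChow, NAPD, NEDD and PCNB, with the group mean and SD beside them (n = 3). For the 8 genes already called every NAPD point stands above all others, as for Nqo1 (1.46 to 1.85), and for Nfe2l2 and Keap1 the groups overlap.

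Naphthalene itself, the unsubstituted ring system, was inhaled at 5 concentrations, which cannot be matched to the dietary doses. Nqo1 was at control level at 0.5 ppm (-0.459, -0.313, -0.278 and -0.109), scattered at 3 ppm (-0.275, 0.398, -0.0207 and 0.315) and high at 10 ppm (0.908, 0.900, 0.873 and 0.778). The differences from air were 1.11 ± 0.09 at 10 ppm, 1.08 ± 0.09 at 20 ppm and 1.15 ± 0.09 at 30 ppm (limma adjusted p from 3.29e-13 to 1.08e-14). All 12 arrays of these groups exceeded the highest of 14 air controls at 0.0558, and 30 ppm exceeded 10 ppm by only 0.034 (95% interval -0.20 to 0.26).

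Gclc took another course. It read 3.31, 3.54, 3.14 and 3.27 at 10 ppm, 3.83, 4.01, 3.85 and 3.72 at 20 ppm and 3.47, 3.50, 3.58 and 3.58 at 30 ppm, against at most 3.11 in air. The differences were 0.59 ± 0.15 (not called, limma adjusted p = 0.184), 1.13 ± 0.15 (limma adjusted p = 1.56e-05) and 0.81 ± 0.15 (limma adjusted p = 0.00517). The arrays at 20 ppm lay above all those at 30 ppm, while the 95% interval of that difference, 0.32, was -0.043 to 0.68. Txnrd1 rose only at 30 ppm in the comparisons with air (2.61, 2.88, 2.62 and 2.66 against at most 2.40, difference 0.61 ± 0.11, limma adjusted p = 0.00455). This call was lost without replicate 2, the highest array (0.54, adjusted p = 0.0633).

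Fitted as a line over the 5 exposed groups, 6 members were higher with naphthalene concentration and 0 lower, in a trend that called 19% of all genes. From 0.5 to 30 ppm the fitted change was 1.15 ± 0.16 for Gclc, 1.07 ± 0.10 for Nqo1, 0.69 ± 0.11 for Txnrd1, 0.51 ± 0.08 for Gclm, 0.33 ± 0.10 for Gsr and 0.30 ± 0.08 for Srxn1 (limma adjusted p from 2.44e-17 to 0.0129). At 0.5 ppm Gclm and Gsr differed from air by -0.23 ± 0.08 and -0.23 ± 0.09, neither of them called, so their fitted change starts below the air mean. The Gsr trend was not called without replicate 2 at 30 ppm (adjusted p = 0.0559) or replicate 3 at 3 ppm (adjusted p = 0.05003), nor with the mean of both probe sets (adjusted p = 0.0554). Slc7a11, Hmox1, Nfe2l2 and Keap1 showed no called trend. Alongside, 6 of 10 alveolar type 2 markers rose and 5 of 12 club cell markers fell with concentration. The T and NK cell list lay below air (0.310 to 0.646) in every array at 20 ppm (0.0504 to 0.200) and 30 ppm (0.174 to 0.279). The part of these 3 lists in the result was not tested.

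Methylene chloride gave a different picture at concentrations that cannot be matched to those of naphthalene. Nqo1 read from -0.498 to -0.380 in the 5 arrays at 100 ppm and -0.178, -0.0409, -0.364 and -0.133 at 4000 ppm, against -0.436 to 0.0558 in air. At 100 ppm 2 of 5 arrays lay below the lowest air control, and at 4000 ppm all lay within the air range. The fitted change from 100 to 4000 ppm was called for Gclm (0.33 ± 0.08, limma adjusted p = 0.00159) and Slc7a11 (-0.22 ± 0.05, limma adjusted p = 0.000721), in a trend that called 21.9% of all genes. Gclm arrays read 1.68, 1.72, 1.61 and 1.53 at 4000 ppm and 1.25, 1.20, 1.35, 1.34 and 1.28 at 100 ppm, with 1.74505 the highest of the air controls. With the mean of all probe sets neither trend was called (0.14, adjusted p = 0.176, and -0.12, adjusted p = 0.0587). Nqo1 (0.23 ± 0.09) was not called, with adjusted p = 0.0614 by limma, but was so without replicate 3 at 4000 ppm (0.28, adjusted p = 0.0307).

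**Figure D4:**
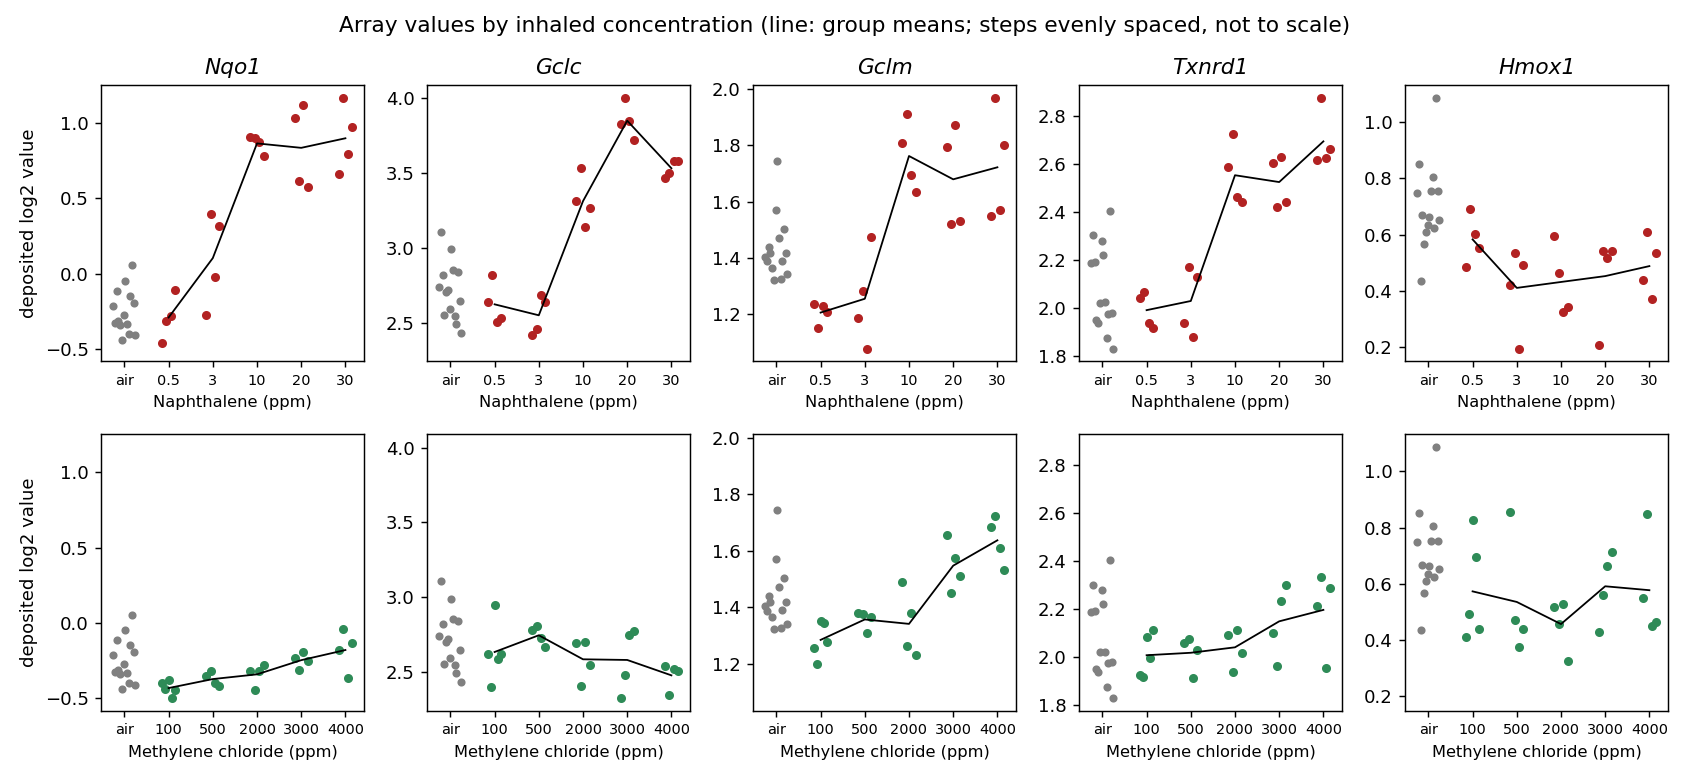
Deposited log2 values of 5 genes in each array by inhaled concentration in ppm, for naphthalene (upper row) and methylene chloride (lower row), with 14 air controls in grey and a line through the group means. Nqo1 lies above all air controls from 10 ppm naphthalene on, Gclc is highest at 20 ppm, and in methylene chloride Gclm goes from a mean below to a mean above that of air. Concentrations are evenly spaced and not to scale.

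Chemicals of the same vehicle and batch could also be contrasted directly, and of 17 such pairs 2 are given because different members had risen in them. They were chosen after the values were seen, so the differences are a description. COUM minus DBET was 0.92 ± 0.12 for Nqo1 and -0.72 ± 0.18 for Gclc, with -0.75 ± 0.19 for Nfe2l2 and -0.28 ± 0.10 for Gclm, while 38.4% of all genes were called in that contrast. DCBZ minus TCPN was 0.62 ± 0.12 for Nqo1, 0.35 ± 0.06 for Slc7a11 and -0.57 ± 0.19 for Nfe2l2, with 9.75% of all genes called. The Nfe2l2 difference between DCBZ and TCPN was -0.33 after quantile normalization (adjusted p = 0.322) and -0.20 with averaged probe sets (adjusted p = 0.14), and it was not called without DCBZ replicate 2 or 3 or any 1 of the 4 TCPN arrays (adjusted p from 0.055 to 0.117). That between COUM and DBET was not called on the arrays of the contrast alone (adjusted p = 0.0577). In DBET 7 of 12 club cell and 6 of 14 ciliated cell markers rose, with club cell array levels from 4.86 to 5.09 against 4.04 to 4.61 in the controls. Their part in the Gclc and Gclm rises was not tested.

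Most members were read by more than 1 probe set, and in NAPD 16 of the 21 rose. By the probe set that stands for each gene, 1.09% of all genes were called there. The 21 include repeated reads of the same member and were tested among 27904 probe sets. The share of all probe sets called in NAPD is not given, so 16 of 21 has no matching background and only describes the values. All 3 probe sets of Txnrd1 rose there, by 1.39, 1.11 and 0.57, and both of Slc7a11, by 0.58 and 1.16. The second of these, 1443536_at, exceeded the median of all values in just 3 arrays, the number the filter asks for, and its rise adds no independent support. Of the 4 for Srxn1, 3 rose by 0.62 to 1.17 and 1419942_at did not (0.08 ± 0.06). Over the 34 groups the differences of the second probe set correlated with those of the main one at 0.93 for Gsr, 0.88 for Gclc and 0.83 for Slc7a11, but at 0.46 for Gclm (1439050_at), 0.53 for Keap1 (1450747_at) and -0.31 for Nfe2l2 (1457117_at). The last of these exceeded the median of all values in 3 arrays only, the number the filter asks for. Its calls therefore add no independent support. The fall of Nfe2l2 in IODO and its rise in TCPN were seen on 1416543_at alone (-0.10 and -0.14 on the other, neither called). The other rose in MALA (0.57 ± 0.08, limma adjusted p = 1.39e-06) and BBMP (0.33 ± 0.08, limma adjusted p = 0.014), where 1416543_at gave -0.41 and -0.22, neither called. Keap1 in IODO rose on both, by 0.34 and 0.54.

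**Figure D5:**
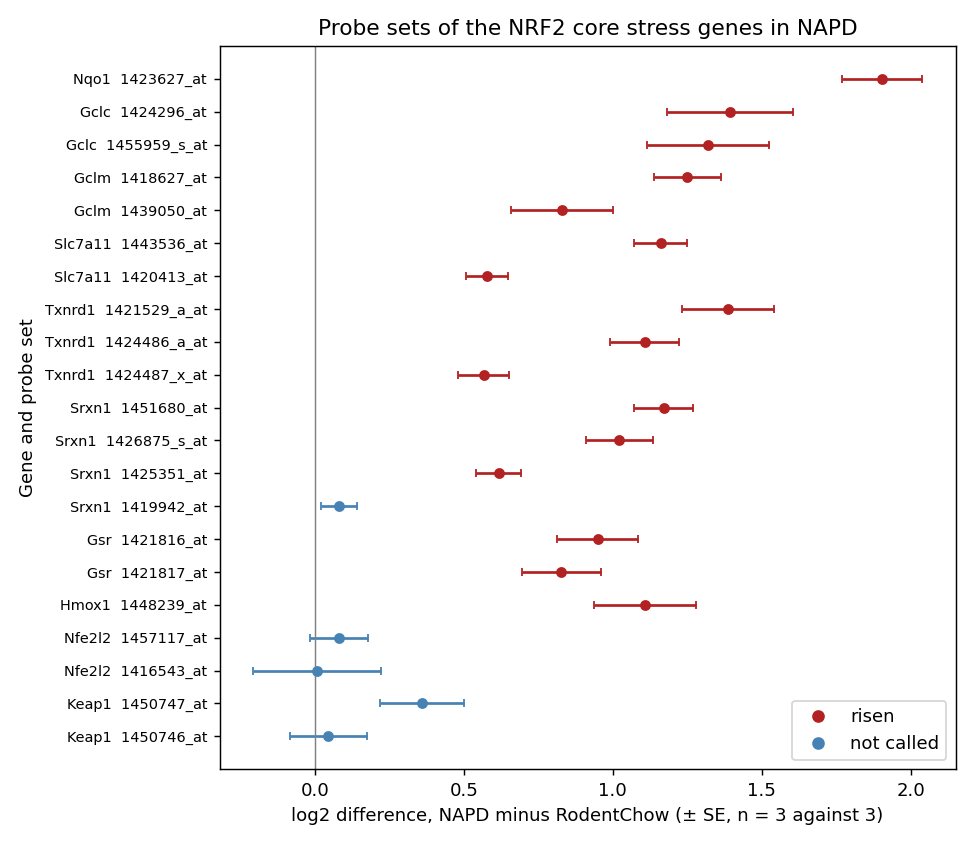
Log2 difference (± SE) between NAPD and RodentChow for each of the 21 probe sets (rows), red where risen and blue where not called. The 5 probe sets that did not pass are those of Nfe2l2 and Keap1 and 1 of 4 for Srxn1.

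Other genes of the pathway were taken from a fixed list of 45 NRF2 targets outside the members, of which 37 were tested. The list was chosen with earlier results of these data known, so its counts are a description and no independent support. In NAPD, with 1.09% of all genes called, 20 of 37 rose and 0 fell (median 0.54 against 0.0043 over all genes). They include Ces1g (2.82 ± 0.19), a carboxylesterase, Gpx2 (2.18 ± 0.22), a glutathione peroxidase of epithelia, Cbr3 (1.80 ± 0.19), a carbonyl reductase, and Aldh3a1 (1.62 ± 0.23), an aldehyde dehydrogenase that is also an aryl hydrocarbon receptor target. In NEDD (0.0887% of all genes called) none of the 37 was called and their median was -0.040. BFUR, with 2 members and 1.86% of all genes called, had 22 of 37 risen (median 0.51 against 0.040). DBET, with 2.67% of all genes called, had 15 (0.31 against 0.019). With the share of all genes called in brackets, COUM (5.69%) and DCBZ (1.43%) had 12 each, BBMP 10 (10.8%) and TCPN 8 (9.37%). Naphthalene at 30 ppm had 7 (2.05%), MALA 4 (1.71%) and ABDQ 2 (0.917%). In BBMP, in MALA and in naphthalene at 30 ppm 1 fell. ABDQ and BFUR thus had Nqo1 differences of 1.10 and 1.15 beside 2 and 22 of the other targets.

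Gpx2 rose in each of NAPD, BBMP (0.87 ± 0.19), MALA (1.02 ± 0.19), DCBZ (1.02 ± 0.16) and naphthalene at 30 ppm (1.12 ± 0.15), and Ces1g in these and in TCPN (1.35 ± 0.14). Akr1b8, an aldo-keto reductase, led the list in BBMP (1.09 ± 0.18) and MALA (1.21 ± 0.18). Of the wider glutathione and thioredoxin list 2 of 26 rose in NAPD, Gpx2, which both lists hold, and the glutathione synthetase gene Gss (0.71 ± 0.12). Of 20 partners and regulators of NRF2, such as small MAF proteins and the ligase scaffold CUL3, 0 were called in NAPD. Of the same 20 genes only Cul3 (0.81 ± 0.19) and Ep300 (0.43 ± 0.11), a coactivator, were called in TCPN, where Nfe2l2 rose. Both rose, a share near the 9.37% of all genes called in that group.

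Lists of neighbouring pathways moved in NAPD as well. Of 7 genes listed for the aryl hydrocarbon receptor, its partner and its targets 3 rose, with Cyp1a1, a monooxygenase, at 4.39 ± 0.28 and Cyp1b1 at 1.19 ± 0.14, and the receptor also induces Nqo1. Of 15 ATF4 targets, which overlap with NRF2 in the control of Slc7a11, 2 rose, Trib3 (0.55 ± 0.10) and Psat1 (0.44 ± 0.12). Of 14 heme handling genes only Blvrb, a biliverdin reductase, rose (1.06 ± 0.14). ABDQ, with 0.917% of all genes called, had 2 of the 7 receptor genes risen. In the naphthalene trend, which called 19% of all genes, 0 of the 7 rose and 3 fell. These were the receptor gene Ahr (-0.54 ± 0.18), its partner Arnt (-0.18 ± 0.06) and Cyp1b1 (-0.49 ± 0.11). The part of the receptor in the Nqo1 rises was not tested.

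Across the 34 groups, differences of several members correlated with each other, most for Txnrd1 and Srxn1 (r = 0.92, rho = 0.87) and for Gclm and Txnrd1 (r = 0.87). Nqo1 correlated at 0.87 with each of Txnrd1 and Srxn1 and at 0.72 with Gclc. Without NAPD these became 0.85 for Txnrd1 and Srxn1 and 0.62 for Nqo1 and Gclc. Other pairs rested mainly on NAPD, as Gclm and Slc7a11 (0.59 with it, 0.01 without) and Nqo1 and Hmox1 (0.47 and 0.22). Nfe2l2 and Keap1 did not follow Nqo1 (r = -0.04 and 0.08 over all groups), and with each other they gave -0.39. Groups of a batch and vehicle share their controls, so these values describe the data and are not tested.

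The ranking of other tested genes passed over symbols of unnamed transcripts, such as Rik symbols or Gm with a number. Within it, the 5 whose differences correlated best with those of Nqo1 over the 34 groups were Gpx2 (r = 0.93), Ces1g (0.92), Cbr3 (0.92), Cbr1 (0.91) and Tmc5 (0.86). For Txnrd1 they were Gpx2, Ces1g, Acox2, Cbr3 and Entpd5 (0.84 to 0.88), and for Srxn1 they were Gpx2, Cldn2, Fetub, Abcb6 and Blvrb (0.84 to 0.88). Gsr went with Gss (0.86), Cd14, Fetub, Pgd and Tubb4b (0.80). Gclc had the loosest company, with Sptssb (0.79), Ghrl, Sncg, Basp1 and Glipr1 (0.73), none of them in the fixed lists of the pathway.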

How the data were processed

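Per the labels' protocols, lung tissue was kept in RNAlater, extracted with Trizol, purified with RNeasy, labelled with biotin by the standard Affymetrix method and hybridised to Mouse 430_2 arrays. The deposited log2 values run from -2.33 to 8.14, with array means between -0.0027 and 0.0033. The normalization, the background correction and the log base are not given in the sources used here. Base 2 was assumed and every fold rests on it. Arrays give no read depth, and groups of 3 to 5 limit the precision.

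Of 45101 probe sets, 34958 had 1 symbol, 932 several and 9211 none, and 34754 were matched to current symbols. Where several probe sets read 1 of the 18194 genes, the one with the highest mean over arrays stood for it, and 13524 genes with at least 3 arrays above the median were tested. With limma 3.58.1 in R 4.3.3, 1 model with a mean per group took in all arrays, and calls follow the rule in the report. Concentration trends are linear contrasts over the exposed groups of a series. The code was tested on simulated data.

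Members and lists were chosen with earlier results of these data known. Non-member genes were named by 2 rules. The first took the 5 genes most correlated with each member called in 3 groups or more, passing over symbols of unnamed transcripts. The second took, where 3 or more members were called, up to 4 called genes of each list with the largest differences. Alternatives were quantile normalization within the batch, averaging a gene's probe sets, dropping the filter, fitting a contrast on its own arrays, pooled control arrays, log10 concentration, controls added at 0 ppm, no array of an integrity number under 7, VANP against ACO3 alone, and each array left out. For the last, arrays of several groups were left out in the same fit, so each contrast lost 1 array and was otherwise affected only through the shared spread. The direct comparisons COUM with DBET and DCBZ with TCPN were added after seeing the data.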

Additional observations from a re-analysis of the deposited data

Results flagged for a closer look

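Of 420 combinations of a gene and a group of 4 or 5 arrays, 18 held an array far from the others of its group. Chance flags about 1 in 20 such groups. All values are deposited log2 levels. Among exposed groups with a called member, Txnrd1 was high in replicate 2 of naphthalene at 30 ppm (2.88, the others at most 2.66), Hmox1 was low in replicate 1 at 20 ppm (0.208, the next 0.516) and Keap1 low in replicate 3 at 20 ppm (1.14). Gclc was high in replicate 4 of IODO (2.66). The Txnrd1 array is the one without which the rise at 30 ppm was not called (adjusted p = 0.0633, limma).

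Among exposed groups without a called member, Nqo1 was high in replicate 4 of TFEL (-0.252), Slc7a11 was high in replicate 4 of ETOX (-0.461), and Nfe2l2 was low in replicate 1 of methylene chloride at 3000 ppm (2.91). In CMPH, Gclc (3.16) and Nfe2l2 (3.18) were high in replicate 1 and Gclm was low in replicate 4 (1.47). Gsr was low in replicate 3 of BENZ (0.854) and in replicate 3 of naphthalene at 3 ppm (0.872), the array without which the Gsr trend was not called.

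Among control sets, Gsr was high in ACO3 replicate 3 (1.53), ACO4 replicate 3 (1.58) and ACO5 replicate 4 (1.59). Txnrd1 was high in ACO5 replicate 3 (2.40), Hmox1 was high in FCO2 replicate 1 (1.10), and Slc7a11 was low in CCO4 replicate 4 (-0.627).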

How the results depend on the processing

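All 8 rises in NAPD, the Nqo1 rises in ABDQ, COUM, DCBZ and naphthalene at 10, 20 and 30 ppm and the Gclc rises at 20 and 30 ppm were called under every alternative run for them. No difference followed here changed sign where it was called in the main setting or in the alternative. Sign changes where neither was called were not counted. No paired analysis was possible because replicate numbers follow accession order and the labels pair no samples. Calls among members under other settings were as follows. After quantile normalization, which moved the median of all genes by -0.119 in TCPN, they were 5 in ABDQ, 1 in BBMP, 5 in COUM, 0 in TCPN, 4, 4 and 5 in naphthalene at 10, 20 and 30 ppm, with 3 falls in all (6 over probe sets), 2 higher with methylene chloride and 1 lower with naphthalene concentration, 4 higher in COUM than DBET and 4 higher and 0 lower in DCBZ than TCPN. Without the filter TCPN had 5. With the mean of all probe sets there were 1 in BFUR, 4 in ABDQ, 1 in DBET, 5 in DCBZ, 7 in TCPN and 3 in naphthalene at 10 ppm, with 2 falls, 0 higher and 0 lower with methylene chloride, 3 higher in COUM than DBET and 4 higher and 0 lower in DCBZ than TCPN. With the arrays of each contrast alone there were 23 rises and 0 falls (38 and 1 over probe sets, against 77 and 3), namely 0 in BFUR, IODO, MALA, DBET and TCPN, 1 in ABDQ, COUM and DCBZ and 2 in naphthalene at 10 ppm, with 3 higher with methylene chloride, 1 lower with naphthalene and 0 lower in COUM than DBET. With control arrays pooled, which asks for 1 call in place of 1 per set, there were 4 in DBET, 5 in DCBZ, 7 in TCPN and 4, 4 and 5 in naphthalene at 10, 20 and 30 ppm, with 3 falls. Leaving out 1 array gave 27 to 44 rises and 0 to 2 falls, with 8 in NAPD, 1 to 4 in BFUR, 1 to 3 in ABDQ, 0 to 2 in IODO, 0 to 5 in BBMP, 1 to 4 in MALA, 1 to 2 in COUM, 0 to 2 in DBET, 3 in DCBZ, 1 to 5 in TCPN, and 1 to 2, 2 and 2 to 4 in naphthalene at 10, 20 and 30 ppm. Trends gave 1 to 2 higher with methylene chloride and 5 to 6 with naphthalene, COUM against DBET 1 to 2 higher and 2 to 4 lower, and DCBZ against TCPN 2 to 3 higher and 0 to 1 lower. Apart from those shown by construction, causes were not tested. Log10 concentration, controls at 0 ppm, integrity numbers and VANP against ACO3 alone moved no count by more than 1.5 times.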
